A study of Rattus norvegicus with 56 samples.

Results

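The 2 mature arms of the rat microRNA hairpin Mir423, miR-423-3p and miR-423-5p, were followed through small RNA sequencing of 56 samples from 3 tissues. They are 2 of the 682 microRNAs listed in any of the deposited tables, and each arm was counted in every sample. They were chosen because miR-423-3p was higher in the amniotic fluid, and miR-423-5p lower in the myocardium, of the non-VSD group than of the NC group. Values of those comparisons are therefore given without a test. The other comparisons in these tissues share the NC or the non-VSD samples with that choice, and maternal serum shares none.

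All samples came from Sprague-Dawley rats on embryonic day 19 (D19). In the VSD and non-VSD groups the dams had been dosed by gavage with dimethadione (DMO), a drug metabolite that causes heart defects in rat fetuses. VSD fetuses had a ventricular septal defect, a hole between the ventricles, with no malformation of the major vessels, and non-VSD fetuses had an intact septum. NC dams received distilled water. Both DMO groups thus carry the drug exposure, and a VSD sample differs from an NC sample in the exposure as well as in the defect. Each group held 7 samples, with 3 groups for the myocardium and for the amniotic fluid and the NC and VSD groups alone for maternal serum. The labels do not name the dam of a sample, so a p-value here measures the spread between samples, some of which may share a litter.

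A microRNA hairpin is cut from a longer transcript and then trimmed to a short duplex with a 5p and a 3p strand. One strand is usually loaded into an Argonaute protein, where bases 2 to 8 (the seed) pair with target messenger RNAs, and the other is mostly degraded. Mir423 is a hairpin from which both strands are found in many tissues. Its 5p strand is a common small RNA of plasma and serum and has been studied there in heart failure.

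The hairpin lies at chr10:62412272-62412350 on the minus strand of the rat assembly GRCr8 (RefSeq), within the span of 1 protein-coding gene, Nsrp1, which encodes a splicing regulator. Its sequence is shown first, with the bases of mature miR-423-5p in capitals (bases 11 to 34 of 79), because the results turn on the balance of its arms. The mature 5p arm (chr10:62412317-62412340) follows with its seed in capitals, and then the only other mature sequence among 724 RefSeq entries with the same seed, miR-3573-5p (chrX:68299280-68299301, plus strand), which is in none of the count tables. The mature entry matched for 1 of the 2 arms, and miR-423-3p is given by name.
Mir423 hairpin: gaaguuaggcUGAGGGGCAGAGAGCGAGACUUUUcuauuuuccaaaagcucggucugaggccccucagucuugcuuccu
miR-423-5p: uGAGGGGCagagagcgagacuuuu
miR-3573-5p: uGAGGGGCagugauagaaagga

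The depth of a library ran from 1694811 to 9371130 counts in myocardium, from 78188 to 331787 in amniotic fluid and from 147609 to 581350 in maternal serum. The arms were counted well above the detection limit in all of them. The lowest miR-423-3p count was 1108 in myocardium, 121 in amniotic fluid and 168 in maternal serum. The lowest miR-423-5p count was 668, 821 and 1756 in the same order. Muscle microRNAs (6 listed, miR-1-3p, miR-133 and myosin-encoded members) were present in every myocardium sample, with a summed level between 4080 and 99046 CPM in the NC group. In amniotic fluid each of the 6 was at 0 in at least 1 sample, and the 8 epithelial markers summed to between 53555 and 152649 CPM. Maternal serum held 3 muscle markers with a 0 in at least 1 sample (miR-208a-3p, miR-208b-3p and miR-499-5p). In these bulk samples fewer cells of a type and less RNA per cell cannot be told apart.

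The leading arm differed between tissues. miR-423-3p had more counts than miR-423-5p in all 21 myocardium samples, and miR-423-5p had more in all 21 amniotic fluid and all 14 maternal serum samples. Both arms were counted in the same library and a read spans a whole mature microRNA, so the ratio needs no scaling for depth or length. In myocardium, miR-423-3p made up 52.0% to 73.5% of the reads of both arms. The interval was 50.9% to 53.0% in the lowest sample, NC replicate 2, and 72.5% to 74.5% in the highest, non-VSD replicate 2 (Wilson, 95%, counting error only). In amniotic fluid the share ran from 10.01% (8.57% to 11.7%) in NC replicate 3 to 35.2% (33.8% to 36.6%) in non-VSD replicate 2. Maternal serum had the lowest shares, from 6.58% (6.06% to 7.14%) in VSD replicate 7 to 15.6% (14.2% to 17.1%) in NC replicate 6. As geometric means over the NC samples, miR-423-3p exceeded miR-423-5p 1.34-fold in myocardium, and miR-423-5p exceeded miR-423-3p 5.80-fold in amniotic fluid and 8.21-fold in maternal serum.

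**Figure D1:**
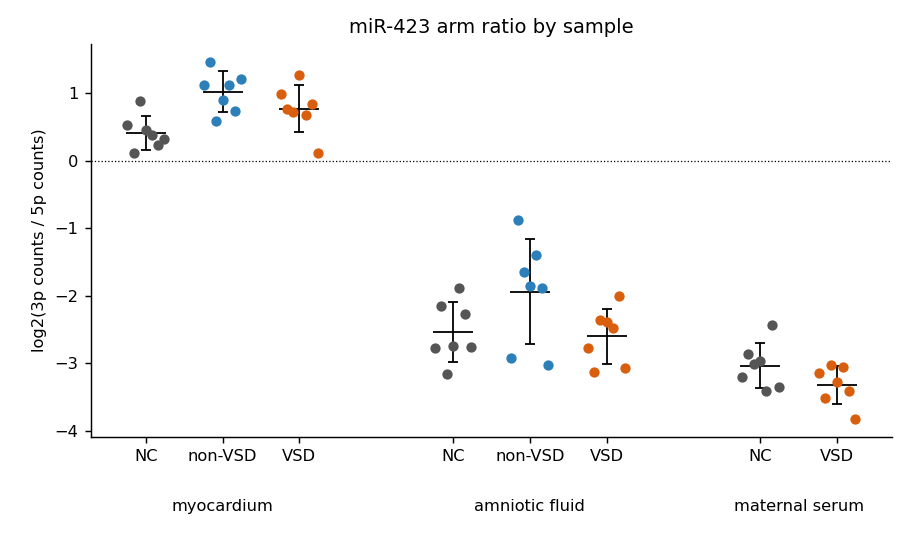
Arm ratio of miR-423 in each sample, as log2 of 3p counts over 5p counts (vertical axis), by tissue and group, with bars for the mean and SD of 7 samples. The 21 myocardium points lie above 0 (dotted line), between 0.11 and 1.47, and the 35 points of amniotic fluid and maternal serum lie below it, between -3.83 and -0.88.

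The arm ratio is given from here as log2 of 3p over 5p counts, with 0.5 added to each count. In the NC group it was 0.42 ± 0.25 in myocardium, -2.54 ± 0.45 in amniotic fluid and -3.04 ± 0.33 in maternal serum (SD, n = 7 each). Myocardium was above maternal serum by 3.46, a 10.97-fold difference in the ratio (exact two-sided permutation test, p = 0.000583, adjusted p = 0.000874 over the 3 tissue pairs). The amniotic fluid minus myocardium difference was -2.95 (exact permutation test, adjusted p = 0.000874). Both have the smallest p that 7 samples against 7 allow. The fluids were closer to each other. Amniotic fluid was above maternal serum by 0.50 (exact permutation test, adjusted p = 0.0390), in a comparison where 60.3% of 68 hairpins had an unadjusted p under 0.05. The call was lost when any of 8 of the 14 samples was left out (exact permutation tests, adjusted p up to 0.0746) and when medians were compared (0.27, exact permutation test, p = 0.184). Tissue cannot be told apart from the RNA extraction kit. Amniotic fluid also had its own library kit and sequencer, whereas the myocardium and serum libraries were made with the same library kit on the same instrument type. The myocardium RNA came from paraffin blocks.

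Differences in arm ratio between these tissues were common. Of the 92 hairpins with both arms counted in NC myocardium and NC maternal serum, 87% differed at an unadjusted p under 0.05, and miR-423 had the 37th largest difference in size. Between NC amniotic fluid and NC myocardium, 68.9% of 103 hairpins differed and miR-423 was 50th. A change of the leading arm in every sample was less common, at 10.9% of hairpins (10 of 92) between myocardium and serum and 7.77% (8 of 103) between amniotic fluid and myocardium. The hairpins with such a change in both comparisons were 7, namely miR-130b, miR-199a, miR-29c, miR-301a, miR-361, miR-423 and miR-434. For 2 of them, miR-361 and miR-423, the 3p arm led in myocardium, and for the other 5 it was the 5p arm. miR-361 had ratios of 1.19 in NC myocardium, -3.30 in NC amniotic fluid and -0.80 in NC maternal serum.

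**Figure D2:**
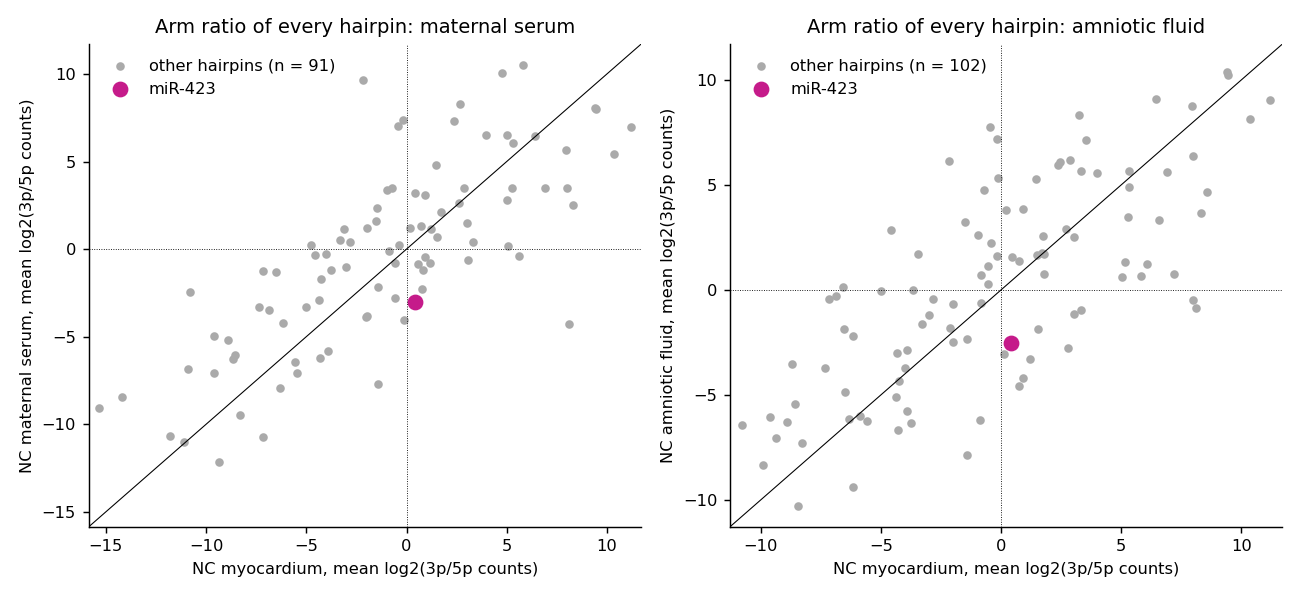
Mean log2 of 3p over 5p counts for each hairpin in the NC group, in myocardium (horizontal axis) against maternal serum (left, 92 hairpins) and amniotic fluid (right, 103 hairpins), with the line of equal ratios. miR-423 (magenta) lies just to the right of 0 in myocardium, at 0.42, and well below 0 in both fluids, at -3.04 and -2.54.

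Both arms had higher median levels in the fluids than in the myocardium. Levels are counts scaled to a library total of 1000000 (CPM), with TMM factors applied within each tissue, so levels are set side by side between tissues without a test. miR-423-5p ranked between 94th and 136th among the microRNAs of a myocardium sample, between 6th and 32nd in amniotic fluid and between 6th and 30th in maternal serum. miR-423-3p ranked between 78th and 121st in myocardium, between 43rd and 100th in amniotic fluid and between 41st and 75th in maternal serum. The median level of miR-423-5p was 354 CPM over the myocardium samples, 11590 CPM in amniotic fluid and 9160 CPM in maternal serum. For miR-423-3p the medians were 589, 2379 and 1045 CPM. In the order of levels, miR-423-5p in myocardium lay below both fluids without overlap, while its levels in the fluids overlapped. The share of all microRNAs that separate these tissues in the same way is not given here. For miR-423-3p the serum and myocardium samples overlapped (up to 1057 CPM in myocardium and from 661 CPM in serum), as did serum and amniotic fluid.

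**Figure D3:**
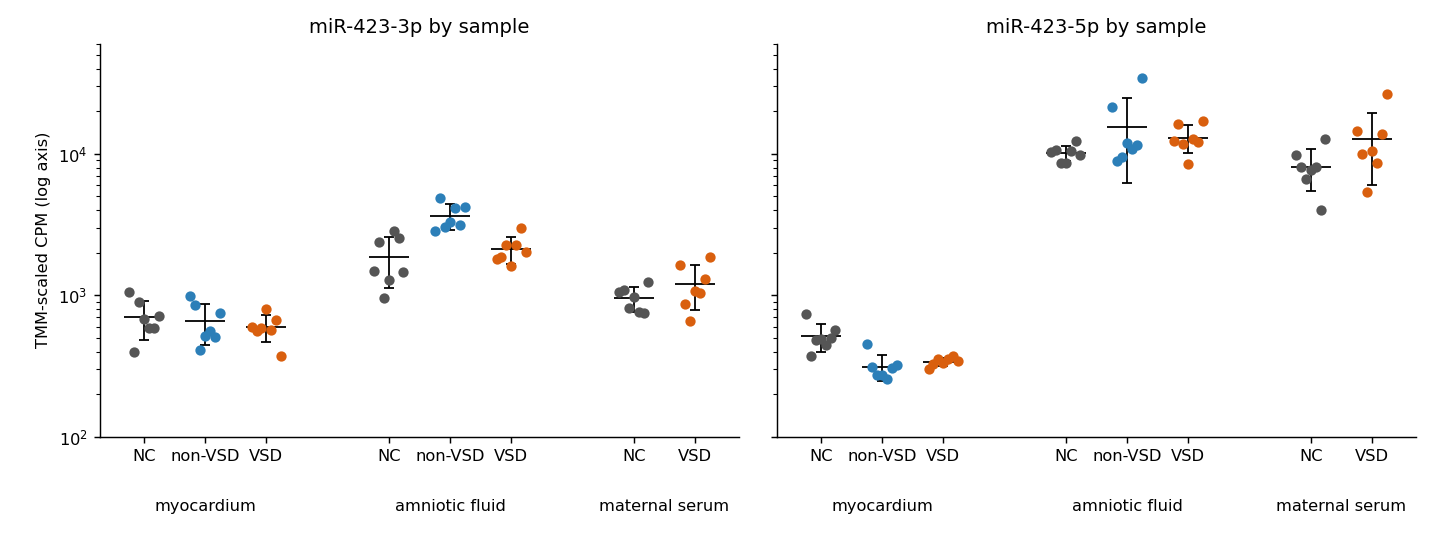
TMM-scaled CPM of miR-423-3p (left) and miR-423-5p (right) in each sample on a log axis, by tissue and group, with bars for the mean and SD of 7 samples. miR-423-5p in myocardium stays between 256 and 732 CPM and in the fluids between 4039 and 34146 CPM, and the range of miR-423-3p over all samples is 372 to 4844 CPM.

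In the myocardium, miR-423-5p lay lower in both DMO groups than in the NC group. The NC samples ran from 370 CPM (replicate 2) through a median of 494 to 732 CPM, with a mean of 513 ± 114 (SD, n = 7). The non-VSD samples ran from 256 through 306 to 449 CPM, with a mean of 313 ± 64.8 (SD, n = 7). The VSD samples ran from 301 through 341 to 370 CPM, with a mean of 340 ± 22.5 (SD, n = 7). In each DMO group 6 of 7 samples were below all NC samples and 7 of 7 were below the NC median. How many of all microRNAs overlapped as little is not given, so these counts are a description. The samples that overlapped were non-VSD replicate 1, at 449 CPM, and the highest VSD sample, which was level with NC replicate 2. The fitted log2 fold change was -0.67 (SE 0.18) in the non-VSD group, the comparison used in choosing the arm, where edgeR called 0.219% of 456 microRNAs at an adjusted p under 0.05. In the VSD group the difference was -0.60 (SE 0.17, 95% interval -0.96 to -0.24, edgeR's quasi-likelihood test, adjusted p = 0.0753), which did not pass. This comparison shares the NC samples with the choice of the arm. Of 469 microRNAs, 0.426% were called there at an adjusted p under 0.05 and 19.2% at an unadjusted one.

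The call on miR-423-5p in VSD myocardium rested on the method, on the scaling and on 1 library. The adjusted p was 0.00456 by DESeq2, 0.0374 in an edgeR fit of all 3 groups and 0.0187 without NC replicate 2. The NC samples in these fits took part in the choice of the arm, as did the non-VSD samples in the fit of all 3 groups. These p-values are therefore not independent of the choice. By limma on log2(CPM + 1), which was scaled by library size without TMM, the adjusted p was 0.569, with a log2 fold change of -0.15. In edgeR it was 0.540 with library-size scaling, 0.0741 with DESeq2 size factors and 0.151 without a filter on low counts. Requiring at least 10 counts in every sample gave 0.106 and a replicate block 0.291 (edgeR). With library-size scaling alone the log2 fold change fell to -0.19, and no VSD sample was then below all NC samples, although 7 of 7 remained below the NC median. That scaling raised the median microRNA of the VSD against NC comparison by 0.37, and relative to the median microRNA miR-423-5p was at -0.55 with TMM and -0.51 with library size. Subtracting the median takes out most of a change in scaling. Both values are therefore close by arithmetic and do not test the difference. Red blood cell markers also lay lower in this comparison. The 4 (miR-451-5p, miR-486, miR-144-3p and miR-144-5p) summed to between 2651 and 91137 CPM in NC samples and between 3435 and 25159 CPM in VSD samples, none was at 0 in any of them, 4 of 4 had an unadjusted p under 0.05 in the lower direction and 0 of 4 an adjusted one. In the non-VSD samples they summed to between 3255 and 33986 CPM. White blood cell markers summed to between 426 and 3758 CPM in NC and between 278 and 1142 CPM in VSD samples, and 2 of 4 were lower at an unadjusted p under 0.05 and 0 of 4 at an adjusted one. The 8 epithelial markers had a median log2 fold change of 1.20 and the 6 muscle markers of -0.47. Of these, 0 of 8 and 0 of 6 had an unadjusted p under 0.05 by edgeR. The part of these cell types in the result was not tested.

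The levels of miR-423-3p overlapped between the myocardium groups. This arm ran from 400 through 676 to 1057 CPM in the NC group, from 409 through 558 to 984 CPM in the non-VSD group and from 372 through 589 to 799 CPM in the VSD group. The log2 fold change against NC was -0.05 (SE 0.25) in the non-VSD group and -0.25 (SE 0.23, 95% interval -0.73 to 0.23) in the VSD group (edgeR, adjusted p = 0.545). Library-size scaling turned both values, to 0.17 in the non-VSD and 0.22 in the VSD group. Between the VSD and non-VSD groups neither arm passed, with -0.14 for miR-423-3p (SE 0.23, 95% interval -0.62 to 0.34, edgeR adjusted p = 0.774) and 0.12 for miR-423-5p (SE 0.16, 95% interval -0.22 to 0.46, edgeR adjusted p = 0.721). No microRNA passed an adjusted p under 0.05 in that comparison by edgeR (0% of 483), while 11.6% did at an unadjusted one.

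The myocardium arm ratio lay further towards 3p in the DMO groups than in the NC group. It was 0.42 ± 0.25 in the NC, 1.02 ± 0.30 in the non-VSD and 0.77 ± 0.35 in the VSD group (SD, n = 7 each), or 1.34-fold, 2.03-fold and 1.71-fold more 3p than 5p. In the non-VSD group 5 of 7 samples exceeded all NC samples, a description of the comparison used in the choice, in which 26.2% of 145 hairpins passed an unadjusted p of 0.05. The VSD group was above the NC group by 0.35 (exact permutation test, p = 0.0519, adjusted p = 0.176 over 5 comparisons), with 6 of 7 samples above the NC median. This comparison shares the NC samples with the choice. VSD replicate 7, at 0.12, stood near the lowest NC sample (0.11), and without it the difference was 0.46 (exact permutation test, adjusted p = 0.0321). In the VSD against NC comparison 26.1% of 153 hairpins had an unadjusted p under 0.05, and miR-423 was 73rd by size. The VSD group was below the non-VSD group by 0.25 (exact permutation test, p = 0.177, adjusted p = 0.221), and 10.4% of 154 hairpins passed an unadjusted p of 0.05.

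In amniotic fluid, miR-423-3p was the arm that stood out, in the non-VSD group. It ran from 956 through 1489 to 2851 CPM in the NC group, with a mean of 1852 ± 728 (SD, n = 7). The non-VSD samples ran from 2834 through 3288 to 4844 CPM, with a mean of 3638 ± 755 (SD, n = 7), and 6 of 7 were above all NC samples. The log2 fold change was 1.06 (SE 0.27), in the comparison that chose the arm, where 4.96% of 242 microRNAs had an adjusted p under 0.05. The VSD samples ran from 1611 through 2011 to 2995 CPM, with a mean of 2121 ± 456 (SD, n = 7), and overlapped the NC group. Their log2 fold change against NC was 0.22 (SE 0.27, 95% interval -0.35 to 0.79, edgeR adjusted p = 0.749). No microRNA had an adjusted p under 0.05 in VSD against NC amniotic fluid by edgeR (0% of 245), and 13.5% had an unadjusted one.

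Between the DMO groups, miR-423-3p was lower in VSD than in non-VSD amniotic fluid by 0.78 on the log2 scale, an effect that did not pass the adjusted threshold (SE 0.26, 95% interval -1.31 to -0.25, edgeR adjusted p = 0.162). The value shares the non-VSD samples that chose the arm. All 7 VSD samples were below the non-VSD median, and 6 of 7 were below every non-VSD sample (7 of 7 with library-size scaling). The share of all microRNAs with so little overlap is not given, here or for the other counts of samples beyond a group. Leaving out each sample in turn gave -0.88 to -0.67. No microRNA had an adjusted p under 0.05 in this comparison by edgeR (0% of 273), and 10.6% had an unadjusted one.

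Red blood cell markers were also higher in non-VSD than in NC amniotic fluid. The 4 red blood cell markers summed to between 15088 and 34906 CPM in the NC group, between 25498 and 86339 CPM in the non-VSD group and between 18171 and 143900 CPM in the VSD group. In the non-VSD against NC comparison 2 of the 4 had an adjusted p under 0.05 and 4 of 4 an unadjusted one, all higher. miR-144-3p and miR-144-5p were at 0 in at least 1 sample of every group. Against the non-VSD group, 0 of 4 had an unadjusted p under 0.05 in the VSD group. White blood cell markers summed to between 534 and 6623 CPM in the NC group, between 1872 and 26760 CPM in the non-VSD group and between 1331 and 32486 CPM in the VSD group. The 2 endothelial markers (miR-126a-3p and miR-126a-5p) summed to between 512 and 2183 CPM in the NC group, between 935 and 4298 CPM in the non-VSD group and between 157 and 3956 CPM in the VSD group. In non-VSD against NC, 1 of the 2, miR-126a-3p, was higher at an adjusted p under 0.05. The other, miR-126a-5p, did not have an unadjusted p under 0.05 by edgeR in either direction. The median log2 fold change of the 2 was 0.59. The 8 epithelial markers summed to between 89826 and 144857 CPM in the NC group and between 53555 and 121760 CPM in the non-VSD group, with 1 of 8 lower at an unadjusted p under 0.05 and 0 of 8 at an adjusted one. The part of these cell types in the level of miR-423-3p was not tested.

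miR-423-5p in amniotic fluid was spread by 2 non-VSD libraries. The NC samples ran from 8592 through 10245 to 12314 CPM and the VSD samples from 8462 through 12387 to 17001 CPM. The non-VSD samples ran from 8927 through 11590 to 34146 CPM, with replicates 1 (21432 CPM) and 7 (34146 CPM) above every other amniotic fluid sample. The log2 fold change against NC was 0.68 (SE 0.29) in the non-VSD group, and it was 0.38 without replicate 7. It was 0.38 (SE 0.21, 95% interval -0.05 to 0.81, edgeR adjusted p = 0.424) in the VSD group. VSD against non-VSD gave -0.26 (SE 0.28, 95% interval -0.83 to 0.32, edgeR adjusted p = 0.857), and 0.062 without non-VSD replicate 7.

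The amniotic fluid arm ratio was -2.54 ± 0.45 in the NC, -1.94 ± 0.78 in the non-VSD and -2.60 ± 0.41 in the VSD group (SD, n = 7 each), or 5.80-fold, 3.84-fold and 6.07-fold more 5p than 3p. The non-VSD group was split, with 4 of 7 samples above all NC samples and replicates 1 and 7, the libraries with the most miR-423-5p, at -2.92 and -3.02. VSD against NC differed by -0.07 (exact permutation test, p = 0.769, adjusted p = 0.769) and VSD against non-VSD by -0.66 (exact permutation test, p = 0.0705, adjusted p = 0.176). The share of hairpins with an unadjusted p under 0.05 was 7.32% of 41 in the first and 10% of 40 in the second, and 13.5% of 37 in non-VSD against NC.

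Maternal serum gave the comparison that played no part in the choice. miR-423-5p ran from 4039 through 8017 to 12687 CPM in the NC group, with a mean of 8120 ± 2670 (SD, n = 7). The VSD samples ran from 5401 through 10447 to 26339 CPM, with a mean of 12736 ± 6751 (SD, n = 7). The groups overlapped, with 3 of 7 VSD samples above all NC samples and 6 of 7 above the NC median, and VSD replicate 7 was the highest. The log2 fold change was 0.65 (SE 0.30, 95% interval 0.02 to 1.27, edgeR adjusted p = 0.326), which did not pass, and it was 0.29 without VSD replicate 7. miR-423-3p ran from 746 through 976 to 1241 CPM in the NC group and from 661 through 1071 to 1855 CPM in the VSD group. Its log2 fold change was 0.33 (SE 0.23, 95% interval -0.14 to 0.81, edgeR adjusted p = 0.543), and 0.12 without VSD replicate 7. By edgeR, 0% of 219 microRNAs were called at an adjusted p under 0.05 and 13.7% at an unadjusted one.

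The serum arm ratio was -3.04 ± 0.33 for NC dams and -3.32 ± 0.29 for VSD dams (SD, n = 7 each), or 8.21-fold and 10.01-fold more 5p than 3p. All 7 VSD samples were below the NC median. The difference of -0.29 did not pass (exact permutation test, p = 0.109, adjusted p = 0.182), and 8.33% of 36 hairpins had an unadjusted p under 0.05. Red blood cell markers summed to between 67052 and 193298 CPM in NC and between 44035 and 111403 CPM in VSD serum. White blood cell markers summed to between 36337 and 72016 CPM in NC and between 48387 and 90715 CPM in VSD serum. Their part in the serum values was not tested.

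**Figure D4:**
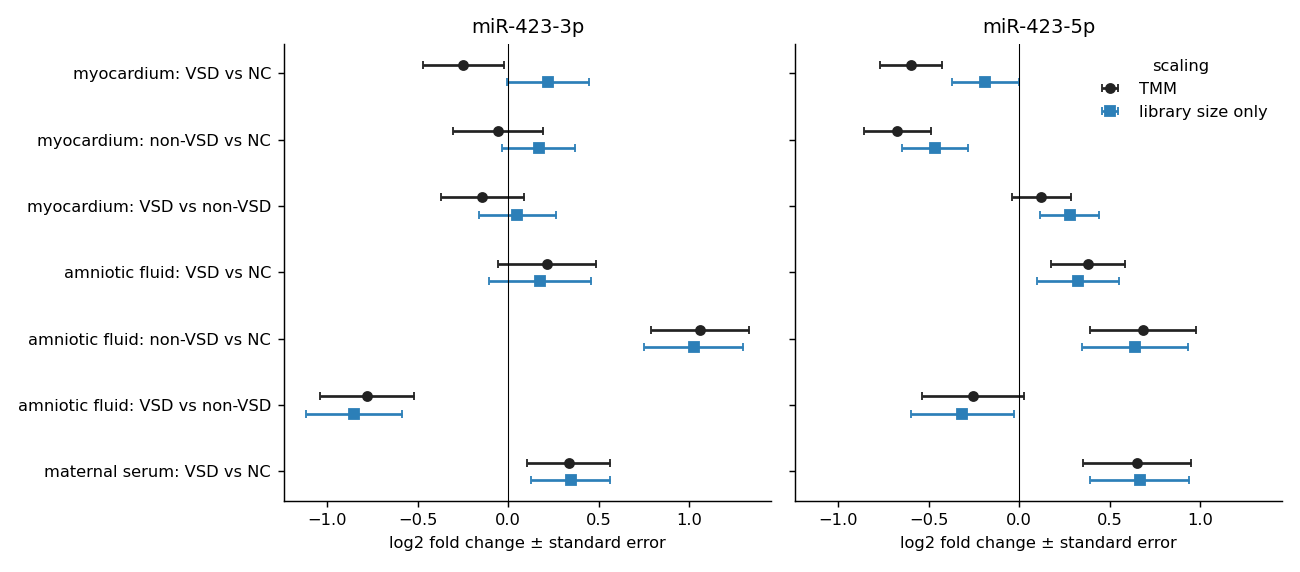
Fitted log2 fold change with its SE for miR-423-3p (left) and miR-423-5p (right) in the 7 comparisons, with TMM scaling (circles) and library size alone (squares). miR-423-5p is below 0 in both myocardium comparisons with NC (-0.60 and -0.67 with TMM, -0.19 and -0.47 with library size) and above 0 in maternal serum, and miR-423-3p is furthest from 0 in non-VSD amniotic fluid, at 1.06.

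The VSD minus NC difference was also set side by side between tissues, as differences of mean log2 CPM. For miR-423-5p it was -0.57 in myocardium, 0.33 in amniotic fluid and 0.57 in maternal serum, so that myocardium minus amniotic fluid was -0.90 and myocardium minus maternal serum was -1.13. With library-size scaling these were -0.44 and -0.78. The arm ratio, which does not depend on scaling, had a VSD minus NC difference of 0.35 in myocardium and -0.29 in maternal serum, 0.64 apart. These are given here as descriptions, because the NC myocardium samples that enter them took part in the choice of the arm. The NC amniotic fluid samples likewise took part in the choice of miR-423-3p, which limits the tests against maternal serum that follow. Between amniotic fluid and maternal serum the difference was -0.01 for miR-423-3p (two-sided permutation test, adjusted p = 0.971 over 9 tests), -0.23 for miR-423-5p (permutation test, adjusted p = 0.642) and 0.22 for the arm ratio (permutation test, adjusted p = 0.571), none of which passed.

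The correlation between the arms was highest in maternal serum. As a description over samples of a tissue, which share their libraries, Spearman's rho between the levels of the 2 arms was 0.49 in myocardium (n = 21), 0.29 in amniotic fluid (n = 21) and 0.87 in maternal serum (n = 14). After removing group means it was 0.56, 0.28 and 0.86. In serum the other arm was the second most alike of 218 microRNAs for both arms, and miR-423-3p was closest to miR-342-3p (rho 0.90, and 0.85 with group means removed) and miR-423-5p to miR-138-2-3p (0.88 and 0.72), a microRNA with a median of 28.2 CPM. In myocardium miR-423-5p was closest to miR-30a-5p (rho 0.89, and 0.44 with group means removed), followed by miR-92a-3p (0.71 and 0.49) and miR-193b-3p (0.70 and 0.71). miR-423-3p in myocardium was closest to miR-361-3p (0.77 and 0.77), miR-130b-5p (0.77 and 0.76) and miR-298-5p (0.73 and 0.76), and miR-361 and miR-130b are also among the hairpins whose leading arm changed between tissues. In amniotic fluid miR-3557-5p (0.68), the red blood cell marker miR-451-5p (0.57) and miR-363-3p (0.57) were closest to miR-423-3p. With group means removed these fell to 0.37, 0.27 and 0.21, and the group means include the non-VSD against NC difference that chose the arm. Closest to miR-423-5p there were miR-27a-5p (0.62, and 0.61 with group means removed), miR-342-3p (0.51 and 0.49) and miR-486 (0.47 and 0.22).

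microRNAs with little spread between samples are used as references in PCR of body fluids, and miR-423 arms are among those tried for this. The SD within groups on the log2 scale was 0.24 for miR-423-5p in myocardium, the 10th lowest of 483 microRNAs, and 0.42 for miR-423-3p, the 127th. In amniotic fluid it was 0.41 for miR-423-3p, the 8th lowest of 273, and 0.47 for miR-423-5p, the 18th. In maternal serum it was 0.42 for miR-423-3p, the 59th lowest of 219, and 0.62 for miR-423-5p, the 148th, above the median of all microRNAs there (0.52). The medians of all microRNAs were 0.60 in myocardium and 1.12 in amniotic fluid. Among the 100 most abundant microRNAs of a tissue, where few counts set the spread less, the medians were 0.42, 0.63 and, in maternal serum, 0.44. miR-423-3p was the 50th lowest of those 100 in myocardium, the 8th in amniotic fluid and the 43rd in maternal serum. miR-423-5p was the 17th in amniotic fluid and the 84th in maternal serum, and was not among the 100 in myocardium. In myocardium and in amniotic fluid, the arm chosen for its difference from NC was the less variable one by this SD. The SD includes the NC and non-VSD samples that took part in the choice, so this is a description. In a list of 12 other microRNAs used as references, the SD ran from 0.23 (miR-26a-5p) to 0.66 (miR-484) in myocardium, from 0.41 (miR-24-3p) to 1.25 (miR-30e-5p) in amniotic fluid and from 0.28 (miR-320-3p) to 0.65 (miR-484) in maternal serum. All 12 were tested in each of the 7 comparisons. The only one with an adjusted p under 0.05 by edgeR was miR-320-3p, higher in non-VSD than NC amniotic fluid by 1.005 (SE 0.27, adjusted p = 0.0438). At an unadjusted p under 0.05, 0 to 3 of the 12 were higher and 0 to 3 lower in a comparison. Of all microRNAs, 10.6% to 19.4% had such a p in either direction. The list's median log2 fold change was between -0.32 and 0.11 over the comparisons, against -0.07 to 0.11 for all microRNAs.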

How the data were processed

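Small RNA libraries were made with the TruSeq kit and sequenced on an Illumina HiSeq (myocardium from wax blocks, maternal serum) or with the QIAseq kit on a NovaSeq (amniotic fluid). The authors converted reads with bcl2fastq 2.19, filtered them with the FASTX-Toolkit and deposited raw counts per mature microRNA in 5 tables. The aligner, microRNA annotation and build are not given in the sources used here. A total of 70 normalized columns and the authors' comparison columns (fold changes and p-values) were not used. NC counts were the same in both tables of a tissue, and a microRNA listed in 1 of them was set to 0 in the other.

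The members and lists were chosen with earlier results of these data known. Counts were fitted over all microRNAs of a tissue with edgeR 4.0.16 in R 4.3.3 (filterByExpr with a minimum count of 10, TMM, quasi-likelihood test, Benjamini-Hochberg), DESeq2 1.42.0 and limma 3.58.1 being alternatives. Limma was run on CPM by library size, without TMM. The VSD against non-VSD contrast came from one fit of the 3 groups. SE was the log2 fold change over the square root of F. Arm ratios used exact permutation over all 3432 groupings, with adjustment over 5 comparisons or 3 tissue pairs. Hairpins compared between tissues needed at least 10 counts of each arm, summed over the NC samples of each tissue. Effects between tissues used 100000 permutations and log2 CPM with a prior count of 2. The named microRNAs were the arms, those sharing a seed, the 3 most alike by Spearman's rho, and from the reference list those called or with the lowest and highest spread. Cell type markers are named from fixed lists, and the hairpins whose leading arm changed between tissues were named after their values were seen. Scripts were tested on simulated data.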

Additional observations from a re-analysis of the deposited data

Results flagged for a closer look

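In the myocardium of the non-VSD group, replicate 1 stood apart from the other 6 samples for miR-423-5p. Its level was 8.81 on the log2 CPM scale against a group median of 8.26, and its gap to the next sample was 0.595 of the range of the group, above Dixon's critical value for 7 samples. In all, 24 sets of 7 values were examined, and chance flags about 1 in 20. Leaving out each sample in turn gave -0.78 to -0.58 for the non-VSD against NC difference.

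In all, 3 differences between tissues in the VSD against NC effect passed a permutation of groups within tissues. For miR-423-5p, myocardium minus amniotic fluid was -0.90 (permutation test, adjusted p = 0.0009) and myocardium minus maternal serum was -1.13 (permutation test, adjusted p = 0.0101), on the log2 scale. With library-size scaling neither passed, at -0.44 (permutation test, adjusted p = 0.171) and -0.78 (permutation test, adjusted p = 0.112). For the arm ratio, myocardium minus maternal serum was 0.64 (permutation test, adjusted p = 0.0287). The arms were chosen in part because miR-423-5p was lower than NC in the myocardium, and the same NC samples enter these tests, so the p-values are not independent evidence of a difference. Of the VSD samples, 7 of 7 lay below the NC median for miR-423-5p in myocardium and 6 of 7 above it in each fluid.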

How the results depend on the processing

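For the 27 tested results, 112 of 122 alternatives with no sample left out kept the direction and the side of the threshold, as did 266 of 280 that left out 1 sample (run for 18 of them). For the 6 results without a test (non-VSD against NC), 38 of 40 and 80 of 84 kept their sign, and all exceptions were miR-423-3p in myocardium, which was near 0. miR-423-3p changed sign in myocardium with limma on log2(CPM + 1) and with library-size scaling, to 0.20 and 0.22 for VSD against NC, to 0.17 and 0.17 for non-VSD against NC (-0.18 to 0.059 without 1 sample) and to 0.033 and 0.051 for VSD against non-VSD. miR-423-5p in VSD against NC myocardium passed with DESeq2 (-0.59) and in a fit of all 3 groups (-0.59), and ran from -0.70 to -0.54 without 1 sample. With limma on log2(CPM + 1) it was -0.15 and with library-size scaling -0.19, and neither passed. Both settings scale by library size without TMM, here and for miR-423-3p, so they are not separate changes of scaling. The NC myocardium samples in these fits took part in the choice of the arm. By medians, the arm ratio of VSD against NC amniotic fluid was 0.27, and without 1 sample it ran from -0.17 to 0.042. By medians, amniotic fluid against maternal serum was 0.27, and without 1 sample 0.39 to 0.61. The arm ratio of VSD against NC myocardium ran from 0.27 to 0.46 without 1 sample, and miR-423-5p in VSD against non-VSD amniotic fluid from -0.35 to 0.062. Library-size scaling, added after the data had been seen, took the tissue differences of miR-423-5p to -0.44 and -0.78. The causes were not tested. Amniotic fluid has the fewest counts, which limits its precision.

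The labels number the samples 1 to 7 in each group, but same-numbered samples did not consistently deviate together. In no comparison did all 7 pairs correlate above 0.1 (at most 5 did), and at most 1 sample correlated best with its own number. The median correlation of same-numbered samples was between -0.19 and 0.15 over the comparisons. The numbers were therefore not taken as pairs. Some myocardium samples carry another number in their description than in their title, so the check by title cannot exclude pairs there. With the replicate number as a block, miR-423-5p in VSD against NC was -0.57 in myocardium (edgeR, adjusted p = 0.291) and 0.56 in maternal serum (adjusted p = 0.261), and no call of miR-423 changed.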
